A study of Homo sapiens with 12 samples.

Results

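The BTG/TOB genes encode a small family of antiproliferative proteins, and 5 members (BTG1, BTG2, BTG3, TOB1 and TOB2) were taken by symbol from the 25365 gene names of an expression table of A549 cells. The family was selected on BTG2, because this gene had already been seen to differ between pyridostatin and vehicle in these libraries. The values of the members in the pyridostatin comparisons are therefore a description, including any count past a threshold, and carry no p-value. For the members, p-values are given only for the genotype comparisons and the interaction. A549 is an epithelial line from a human lung adenocarcinoma. Pyridostatin (PDS) is a synthetic ligand that binds and holds together G4 DNA, a folded structure of guanine-rich strands. Wild-type (WT) A549 cells and cells labelled PARP3-/- received either vehicle (DMSO) or 1 µM pyridostatin for 24 h. Each of the 4 groups had 3 biological replicates, which gave 12 RNA-seq libraries. PARP3 is a mono-ADP-ribosyltransferase that acts in the repair of DNA double-strand breaks. The PARP3-/- cells carry a Cas9 deletion in the first exon and were cloned by dilution, and the number of clones behind the libraries is not given in the sources used here, so clone and genotype cannot be told apart.

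Proteins of this family share an amino-terminal BTG domain that binds CNOT7 and CNOT8. These are among the deadenylase subunits of the CCR4-NOT complex, which shortens the poly(A) tails of mRNAs. BTG1 and BTG2 are close relatives, BTG3 is more distant, and TOB1 and TOB2 have long carboxy-terminal parts that bind the poly(A)-binding protein. Raised levels of these proteins slow the entry of cells into S phase. BTG2 is a textbook gene of the DNA damage response and an immediate early gene, whereas TOB1 and TOB2 take their name from binding the ERBB2 receptor.

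The stretches before the transcription starts are shown as a description, since pyridostatin binds folded guanine-rich DNA. A link between these stretches and the levels of the members was not tested. RefSeq lists 6 starts for the 5 members on GRCh38.p14. A G-run was defined as 4 runs of at least 3 G with 1 to 7 bases between them, on either strand. The 250 bases before 3 starts are printed 5′ to 3′ on the strand of the gene, with the G-run in capitals. BTG2 and the second start of TOB1 carry such a run, and BTG1, the closest relative of BTG2, does not.
BTG2, chr1:203305269-203305518, plus strand: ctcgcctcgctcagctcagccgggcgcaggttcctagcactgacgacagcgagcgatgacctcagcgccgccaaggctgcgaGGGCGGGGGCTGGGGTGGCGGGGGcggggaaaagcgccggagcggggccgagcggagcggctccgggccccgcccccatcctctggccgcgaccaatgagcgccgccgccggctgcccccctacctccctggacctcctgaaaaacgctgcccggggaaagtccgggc
TOB1, second start, chr17:50866355-50866604, minus strand: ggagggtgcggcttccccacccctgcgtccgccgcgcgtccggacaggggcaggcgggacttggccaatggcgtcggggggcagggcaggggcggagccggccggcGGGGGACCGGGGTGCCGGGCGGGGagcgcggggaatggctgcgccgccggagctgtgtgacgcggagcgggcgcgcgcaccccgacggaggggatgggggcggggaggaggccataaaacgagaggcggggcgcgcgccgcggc
BTG1, chr12:92145847-92146096, minus strand: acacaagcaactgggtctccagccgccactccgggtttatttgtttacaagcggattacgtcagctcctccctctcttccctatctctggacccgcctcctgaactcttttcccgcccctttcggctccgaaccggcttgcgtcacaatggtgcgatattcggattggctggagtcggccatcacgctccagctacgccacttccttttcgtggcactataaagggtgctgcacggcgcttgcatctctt
The run of BTG2 lies 168 to 145 bases before the start and that of TOB1 lies 144 to 121 bases before. Of the 6 windows of 300 bases (250 before and 50 after the start), 3 held a G-run, the third being that of TOB2, which has one on each strand. BTG3 and the first start of TOB1 had none. Over all 35116 windows of the same length, 25.0% held a G-run, so the motif is common and its presence is a description, not a mapped G4 structure. The 5-letter box CCAAT was found in the windows of BTG1 (on the opposite strand), BTG2 and the second start of TOB1, against 34.6% of all windows. A TATAAA box lay 33 to 28 bases before the start of BTG1, and 11.5% of all windows hold these letters on either strand. The CArG box (1.29% of all windows) was in no window of a member, which says only that its letters are not within this stretch. By base composition the BTG2 window was 73.3% G and C, against a median of 58.7% over all windows. The windows of BTG3 (77.3%) and the second start of TOB1 (78.7%) were richer. Those of TOB2 (68.7%), BTG1 (56%) and the first start of TOB1 (41.3%) were poorer.

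The depth is not given with the deposited values, which are FPKM (fragments scaled to transcript length and to mapped reads). Steps between low values put it at roughly 21700000 to 30700000 reads per library. PARP3 itself had 3.73 ± 0.293 FPKM (SD, n = 3) in WT and 4.41 ± 0.447 in libraries labelled PARP3-/- with vehicle, and 3.79 ± 0.243 and 4.58 ± 0.245 with pyridostatin. The label PARP3-/- thus did not go with a lower transcript level, which does not check it. Keratin transcripts of epithelial cells were abundant (KRT8 2766 to 3375 FPKM), and the leukocyte genes PTPRC and CD3E were at 0 in 10 and 12 libraries. The epithelial gene EPCAM was low (0.879 to 2.36 FPKM). Of the other markers of other cells, CD79A (0.0882 to 0.390 FPKM), CDH5 (0.0990 to 0.375) and COL1A1 (0.572 to 1.63) were above 0 in every library. PECAM1 and COL3A1 did not exceed 0.0397 FPKM. In bulk RNA, fewer expressing cells and less RNA per cell cannot be told apart. WT vehicle replicate 2 stood apart from its group. Without it, the number of genes called between pyridostatin and vehicle in the libraries labelled PARP3-/- went from 661 to 1559 of 11881 tested, and the number between genotypes with pyridostatin from 1297 to 2298.

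All 5 members were expressed in all 12 libraries, and all 5 were among the 11881 genes that were tested, those whose mean reached 1 FPKM. TOB1 had the highest level in each group. With vehicle, WT cells had 52.0 ± 3.45 FPKM of TOB1, 18.1 ± 1.79 of BTG3, 12.6 ± 0.639 of BTG1, 5.84 ± 0.105 of TOB2 and 4.51 ± 0.143 of BTG2 (SD, n = 3). The libraries labelled PARP3-/- had the same order with vehicle, and in both groups no neighbours in that order overlapped between libraries. With pyridostatin BTG2 moved past TOB2 in both genotypes, to the fourth place. There its libraries overlapped with those of BTG1 in WT cells but not in the libraries labelled PARP3-/-. The mean of TOB1 over the 12 libraries was above that of 86.7% of the tested genes and the mean of TOB2 above that of 35.1%, with the other members between them.

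**Figure D1:**
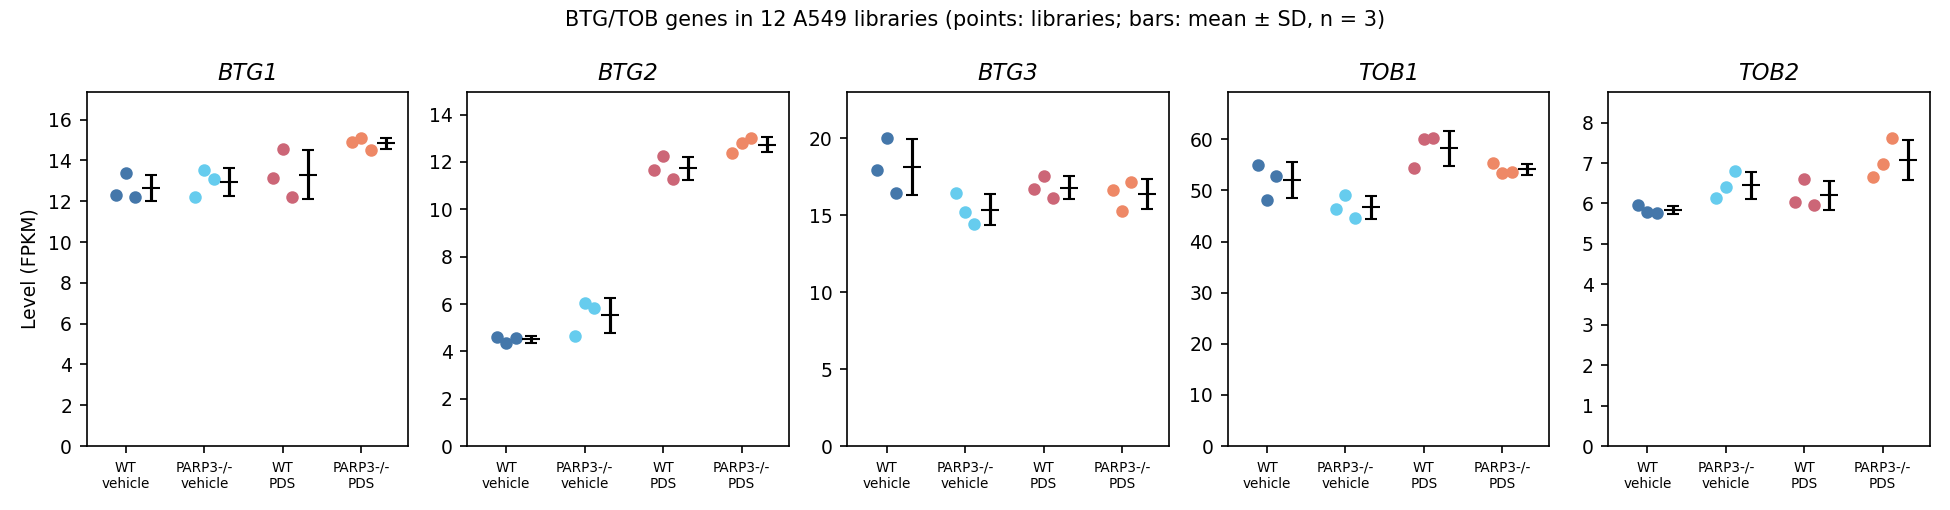
Level in FPKM (y axis, from 0) of each BTG/TOB gene in the 12 libraries, by genotype and treatment on the x axis (points, libraries; bars, mean ± SD, n = 3). BTG2 has 4.35 to 6.06 FPKM in the vehicle libraries and 11.3 to 13.01 FPKM in the pyridostatin libraries, while the highest library of every other member is at most 1.39 times its lowest.

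BTG2 was more than doubled with pyridostatin in both genotypes. In WT cells its level was 4.63, 4.35 and 4.56 FPKM with vehicle and 11.7, 12.2 and 11.3 FPKM with pyridostatin. The lowest treated library lay 6.66 FPKM above the highest vehicle library, and the ratio of the means was 2.60. In the libraries labelled PARP3-/-, BTG2 had 4.67, 6.06 and 5.83 FPKM with vehicle and 12.4, 12.8 and 13.01 FPKM with pyridostatin. Here too the groups lay apart, by 6.34 FPKM, with a ratio of the means of 2.31. The means differed by 7.23 FPKM in WT and by 7.22 FPKM in the libraries labelled PARP3-/-. On the log2(FPKM + 1) scale used for the fit, which understates ratios at low levels, the differences were 1.21 (SE 0.0720) and 1.08 (SE 0.0720). A gene was called at an adjusted p under 0.05 in limma over all tested genes. By this rule 1 of the 5 members, BTG2, was called in each genotype, where 4.17% of all tested genes were called in WT and 5.56% in the libraries labelled PARP3-/-. BTG2 was also among the 5 genes in WT (0.0421% of those tested) and the 6 in the libraries labelled PARP3-/- (0.0505%) that were called with a log2 fold change above 1. Since BTG2 was the reason for choosing the family, these counts were fixed by that choice and nothing is read from them. Its log2 fold change stayed above 1 in WT cells with any library left out (1.18 to 1.23), but in the libraries labelled PARP3-/- it was 0.98 without their vehicle replicate 1, the lowest of the 3 for BTG2.

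BTG1, the closest relative of BTG2, differed far less. In WT cells it had 12.3, 13.4 and 12.2 FPKM with vehicle and 13.1, 14.6 and 12.2 FPKM with pyridostatin, and these ranges overlapped. With the label PARP3-/- it had 12.2, 13.5 and 13.1 FPKM with vehicle and 14.9, 15.1 and 14.5 FPKM with pyridostatin, which did not overlap. The log2 differences were 0.07 (SE 0.0614) in WT and 0.18 (SE 0.0614) in the libraries labelled PARP3-/-. With these unequal differences, BTG2 went from 0.358 to 0.885 of the level of BTG1 in WT cells (FPKM ratios, means of 3 libraries), and from 0.425 to 0.859 in the libraries labelled PARP3-/-.

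TOB1, the most abundant member, had 54.9, 48.2 and 52.9 FPKM with vehicle and 54.3, 60.1 and 60.2 FPKM with pyridostatin in WT cells. A single treated library lay within the vehicle range. In the libraries labelled PARP3-/-, all 3 pyridostatin values of TOB1 (55.3, 53.4 and 53.6 FPKM) lay above the 3 vehicle values (46.4, 49.1 and 44.6 FPKM). On the log2 scale TOB1 differed by 0.16 (SE 0.0577) and 0.21 (SE 0.0577). By description only, TOB1 joined BTG2 past the threshold in the libraries labelled PARP3-/- in 2 alternatives, the fit of only the libraries of that comparison (0.21) and the fit without WT vehicle replicate 2.

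TOB2, the low-level relative of TOB1, overlapped between treatments in both genotypes, with log2 differences of 0.07 and 0.12 (SE 0.0559). BTG3, known to bind E2F1 and CHEK1, also overlapped. Its log2 difference was -0.10 in WT and 0.09 in the libraries labelled PARP3-/- (SE 0.0722). Over the family, the pyridostatin and vehicle libraries of WT cells did not overlap for 1 member (BTG2), where 23.1% of all tested genes had no overlap. With the label PARP3-/- they did not overlap for 3 members (BTG1, BTG2 and TOB1), where the share of all genes was 32.3%.

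**Figure D2:**
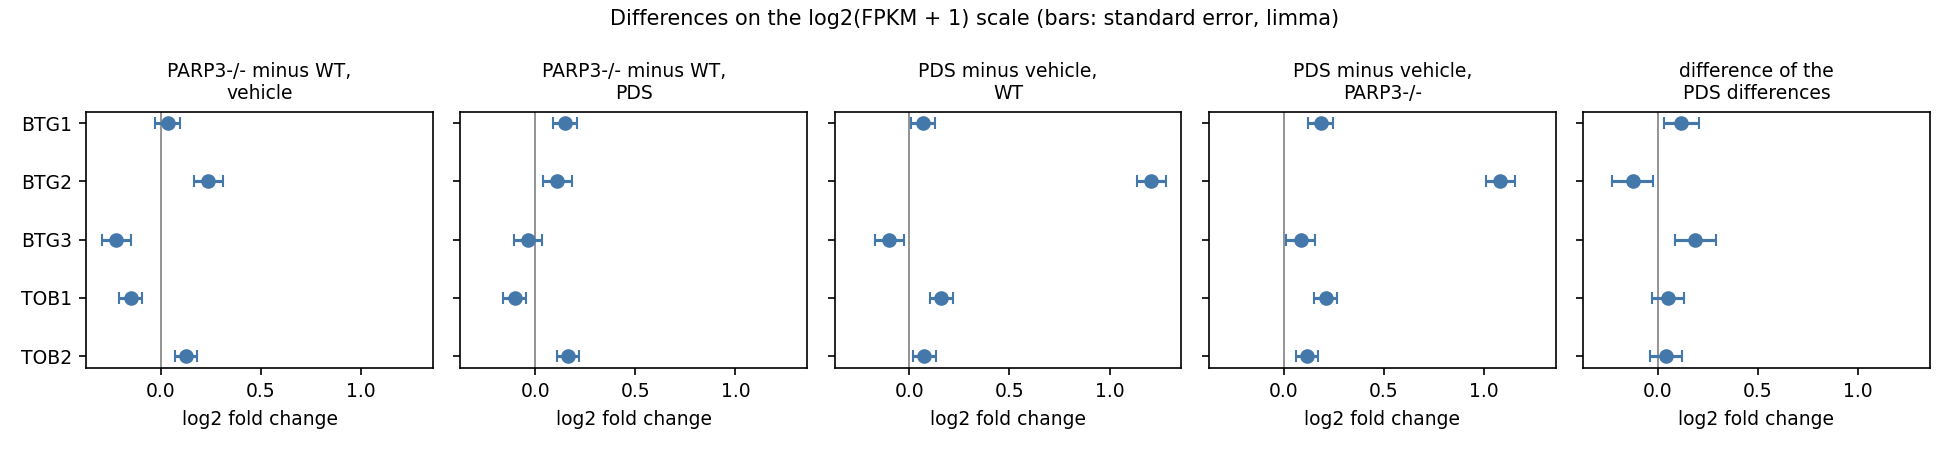
Log2 fold change on the log2(FPKM + 1) scale (x axis) of the 5 members (y axis) for PARP3-/- minus WT with vehicle and with PDS, for PDS minus vehicle in WT and in PARP3-/-, and for the difference of the PDS differences (points, estimates; bars, SE from limma, 3 libraries a group). BTG2 stands at 1.21 and 1.08 in the PDS panels, and the other values of the 5 members lie between -0.22 and 0.24.

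The levels of the 5 members, which are already scaled to transcript length, were added in each library to describe the family as a whole. The sum was 93.1 ± 2.31 FPKM in WT with vehicle, 86.9 ± 2.95 in the libraries labelled PARP3-/- with vehicle, 106 ± 4.61 in WT with pyridostatin and 105 ± 1.37 in the libraries labelled PARP3-/- with pyridostatin (SD, n = 3). BTG2 made up 4.85% and 6.34% of the sum with vehicle and 11.1% and 12.1% with pyridostatin, in WT and in the libraries labelled PARP3-/- respectively. TOB1 gave the greater part of the sum in every group, from 51.5% to 55.8% on average. Between treatments the mean of TOB1 differed by 6.20 FPKM in WT and 7.44 in the libraries labelled PARP3-/-, beside 7.23 and 7.22 for BTG2. BTG1 and TOB2 differed by less, and BTG3 by -1.33 and 1.00. As the sums hold BTG2, their difference between treatments is a description too.

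**Figure D3:**
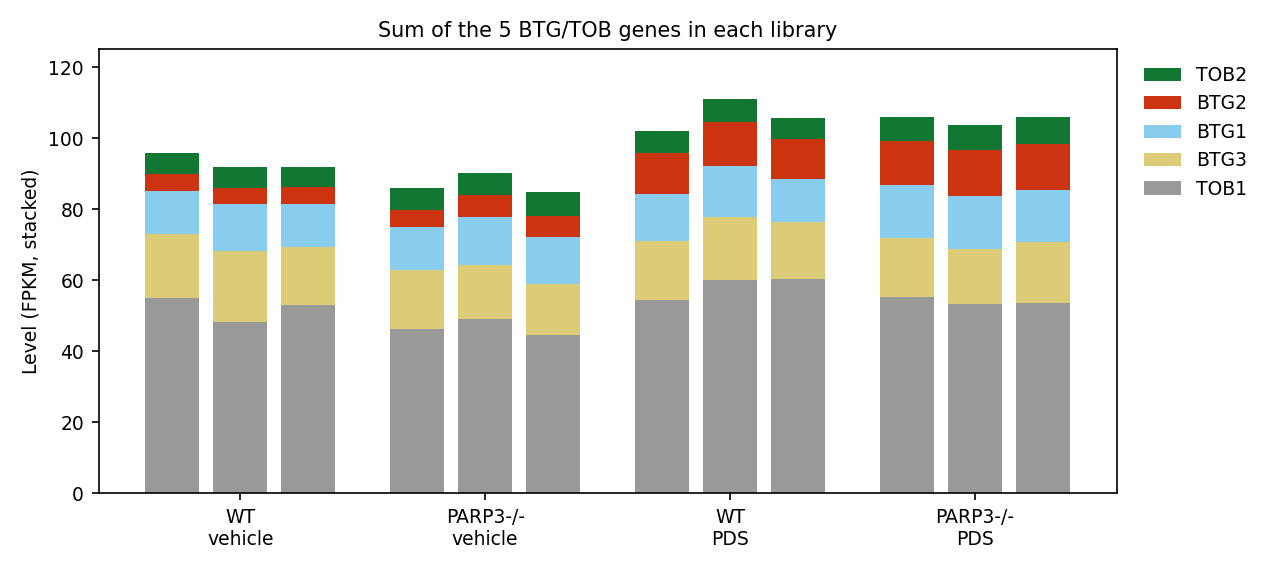
Stacked level in FPKM (y axis, from 0) of the 5 BTG/TOB genes in each of the 12 libraries (bars, single libraries, replicates 1 to 3 of each group on the x axis). TOB1 is the tallest segment in each bar, and the BTG2 segment grows from 4.85% of the sum in WT with vehicle to 11.1% in WT with PDS.

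The genotype comparisons asked whether the members differed between WT cells and those labelled PARP3-/-, and none passed the test. With vehicle 0 of 5 members were called, where 9.41% of all tested genes were, and with pyridostatin 0 of 5, where 10.9% were. BTG2 was 0.24 higher on the log2 scale in the libraries labelled PARP3-/- with vehicle (95% CI 0.08 to 0.39, limma adjusted p = 0.0693), and 0.11 higher with pyridostatin (95% CI -0.05 to 0.27, limma adjusted p = 0.407). The vehicle groups of BTG2 were separated by only 0.0446 FPKM, since replicate 1 of the libraries labelled PARP3-/- (4.67 FPKM) lay next to the WT libraries. Without that library the BTG2 difference was 0.33 with a limma adjusted p of 0.00243, so whether BTG2 is called with vehicle depends on 1 library. Over the 20 alternatives its limma adjusted p with vehicle ran from 0.00243 to 0.275.

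BTG3 went the other way with vehicle. It had 17.9, 20.0 and 16.4 FPKM in WT and 16.4, 15.2 and 14.4 FPKM in the libraries labelled PARP3-/-. The groups were 0.0091 FPKM apart, and the log2 difference was -0.22 (95% CI -0.38 to -0.06, limma adjusted p = 0.0862). Without WT vehicle replicate 3, which had the lowest BTG3 of its group, the difference was -0.29 with a limma adjusted p of 0.0378. Over the 20 alternatives the limma adjusted p of BTG3 with vehicle ran from 0.0378 to 0.252. With pyridostatin the BTG3 groups overlapped (16.7, 17.5 and 16.1 against 16.6, 15.3 and 17.2 FPKM), and the log2 difference was -0.04 (limma adjusted p = 0.828).

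For TOB1 the log2 difference between genotypes was -0.15 with vehicle (95% CI -0.28 to -0.02, limma adjusted p = 0.147) and -0.10 with pyridostatin (limma adjusted p = 0.324). WT vehicle replicate 2 had the lowest TOB1 level of its group, 48.2 FPKM. Leaving it out made the vehicle difference -0.21 with a limma adjusted p of 0.0304. Over the 20 alternatives the limma adjusted p of TOB1 with vehicle ran from 0.0304 to 0.365. TOB2 went in the direction opposite to that of TOB1. It had 5.96, 5.79 and 5.76 FPKM in WT and 6.14, 6.41 and 6.81 FPKM in the libraries labelled PARP3-/- with vehicle, and 6.05, 6.62 and 5.95 against 6.64, 6.98 and 7.62 FPKM with pyridostatin. Neither pair of groups overlapped, but the log2 differences of 0.12 and 0.16 had limma adjusted p-values of 0.232 and 0.0930. The FPKM ratio of TOB1 to TOB2 was 8.91 ± 0.511 in WT and 7.25 ± 0.614 in the libraries labelled PARP3-/- with vehicle, and 9.40 ± 0.625 and 7.67 ± 0.642 with pyridostatin (SD, n = 3). BTG1 differed by 0.03 with vehicle (limma adjusted p = 0.826) and by 0.15 with pyridostatin (limma adjusted p = 0.164). The latter became 0.21 with a limma adjusted p of 0.0426 without WT pyridostatin replicate 2. Over the 20 alternatives the limma adjusted p of BTG1 with pyridostatin ran from 0.0426 to 0.481.

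Counted by overlap, 3 members had no overlap between genotypes with vehicle (BTG2 and TOB2 higher, BTG3 lower in the libraries labelled PARP3-/-), where 24.2% of all tested genes had none. With pyridostatin 2 members had none (BTG2 and TOB2, both higher), against 35.2% of all tested genes.

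The interaction asked whether the pyridostatin difference itself differed between genotypes. In limma 0 of 5 members and 0% of the 11881 tested genes were called, while 521 genes (4.39%) had an unadjusted p under 0.05. For BTG2 the pyridostatin difference was 0.13 smaller on the log2 scale in the libraries labelled PARP3-/-, an interaction of -0.13 (95% CI -0.35 to 0.10, limma adjusted p = 0.999). The other members had interactions of 0.12 (BTG1), 0.19 (BTG3), 0.05 (TOB1) and 0.04 (TOB2), each with the same limma adjusted p. The interval of BTG3, -0.04 to 0.41, was the one that reached farthest from 0.

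The 3 further names in the table begin like those of the family, and all fell under the filter of 1 FPKM. BTG4, a member known from oocytes, was at 0 in 3 libraries and did not exceed 0.205 FPKM. TOB2P1, a pseudogene of TOB2 that may share reads with it, lay between 0.512 and 0.867 FPKM. TOB1-AS1, a gene antisense to TOB1, had 0.304, 0.463 and 0.259 FPKM in WT with vehicle and 0.574, 0.654 and 0.890 in the libraries labelled PARP3-/- with vehicle. With pyridostatin it had 0.540, 0.556 and 0.730 FPKM in WT and 0.868, 0.921 and 0.634 in the libraries labelled PARP3-/-. The library kit keeps strand, but whether strand was used in the quantification is not given in the sources used here. TOB1 was at least 44.6 FPKM in every library, far above its antisense partner.

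The genes whose profile was most like that of a member were found by Pearson's r of log2(FPKM + 1) across the 12 libraries. These points share their groups, so r is a description. For BTG2 the 5 closest genes were C12orf5 (0.992), CDKN1A (0.990), EXOC3 (0.990), MBD1 (0.987) and FBXO22 (0.982), with Spearman's rho of 0.888 to 0.972. CDKN1A, which encodes the cyclin-dependent kinase inhibitor p21, had 80.5 to 94.9 FPKM in WT with vehicle and 189 to 196 FPKM with pyridostatin. Its range in the libraries labelled PARP3-/- was 95.6 to 102 FPKM with vehicle and 198 to 215 FPKM with pyridostatin. C12orf5, also named TIGAR, went from 5.81 ± 0.185 to 8.53 ± 0.0866 FPKM in WT (SD, n = 3). For the other members the closest genes were TRIOBP (r = 0.910), OBSL1 and FAM171A2 for BTG1, CDK16 (0.915), RAB30-AS1 and C19orf24 for BTG3, ATP10A (0.934), AMMECR1L and NEDD4L for TOB1, and GYS1 (0.960), PML and ARHGAP23 for TOB2. Ranked by Spearman's rho, 0 of the 5 genes closest to BTG2 by Pearson's r remained among the top 5. Between members, r was 0.68 for BTG1 and BTG2, 0.64 for BTG2 and TOB1, and -0.18 for BTG2 and BTG3 (12 libraries).

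**Figure D4:**
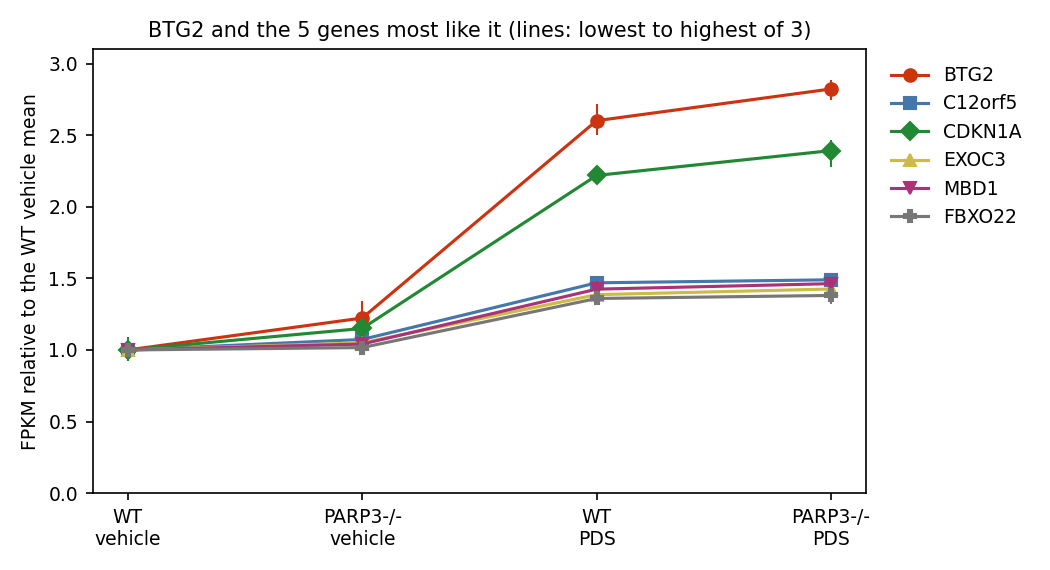
Mean FPKM of BTG2 and of the 5 genes most like it, relative to the WT vehicle mean of each gene (y axis, from 0), in the 4 groups on the x axis (points, means of 3 libraries; vertical lines, lowest to highest library). BTG2 reaches 2.60 in WT with PDS, and each of the 5 genes is higher with PDS than with vehicle in both genotypes.

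Genes of the deadenylation machinery to which these proteins bind differed little. The list held 18 genes of the CCR4-NOT complex, PAN2-PAN3, PARN and the poly(A)-binding proteins, all of them tested, and 0 were called in the genotype and pyridostatin comparisons or the interaction. With 4.17% to 10.9% of all tested genes called in the 4 pairwise comparisons, 0 of 18 is not far from that background. Their log2 differences in the pyridostatin comparisons lay between -0.11 and 0.22 in WT and between -0.18 and 0.24 in the libraries labelled PARP3-/-. The medians were 0.00 and -0.01, beside 0.00 for all tested genes in both. Without WT vehicle replicate 2, 2 of the 18 were called with pyridostatin in the libraries labelled PARP3-/- and 1 between genotypes with pyridostatin.

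Among 12 other binding partners of BTG/TOB proteins, 10 were tested. E2F1, a transcription factor of S phase genes that BTG3 binds, fell with pyridostatin from 25.04 ± 2.23 to 18.2 ± 0.307 FPKM in WT (SD, n = 3, log2 difference -0.44, limma adjusted p = 0.00474). The call in WT was lost when only the libraries of that comparison were fitted (limma adjusted p = 0.0722). In the libraries labelled PARP3-/- it fell from 23.8 ± 0.926 to 17.98 ± 1.33 FPKM (log2 difference -0.39, limma adjusted p = 0.00803). The other 9 tested partners were not called in either pyridostatin comparison. The 1 called is 10% of the 10, beside 4.17% of all tested genes in WT and 5.56% in the libraries labelled PARP3-/-. The number called ran over the alternatives from 0 to 2 in WT and from 1 to 3 in the libraries labelled PARP3-/-, where the 3 were without WT vehicle replicate 2. Between genotypes, HOXB9, a homeobox factor that binds BTG1 and BTG2, was higher in the libraries labelled PARP3-/-, by 0.42 on the log2 scale with vehicle (limma adjusted p = 0.000561) and by 0.40 with pyridostatin (limma adjusted p = 0.000744). ERBB2, the receptor for which TOB is named, was 0.19 higher in both comparisons (limma adjusted p = 0.0242 and 0.0221). HOXB9 kept its calls in all 20 alternatives and ERBB2 in 15 of 20 for each treatment. ERBB2 was lost without WT replicate 1 or 3 or PARP3-/- replicate 2 of the vehicle libraries, and without WT replicate 1 or 3 or PARP3-/- replicate 2 or 3 of the pyridostatin libraries. The other 8 tested partners were not called between genotypes, but without WT vehicle replicate 2 the number called with vehicle went from 2 to 4. The 2 called are 20% of the 10, beside 9.41% of all tested genes with vehicle and 10.9% with pyridostatin.

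For the DNA damage response, 19 textbook damage-inducible genes beside BTG2 were listed, and all were tested. With pyridostatin 16 were called higher and 0 lower in WT, with a median log2 difference of 0.75 over the list. For the libraries labelled PARP3-/- the counts were 19 and 0, with a median of 0.69. The median of all tested genes was 0.00 in both. On the log2(FPKM + 1) scale CDKN1A had the largest difference of the list, 1.14 in WT (limma adjusted p = 1.12e-05) and 1.05 in those labelled PARP3-/- (limma adjusted p = 3.21e-05). SESN2, a stress-induced sestrin, rose by 0.79 and 0.80 (limma adjusted p = 0.00013 and 0.000112). FDXR, a mitochondrial ferredoxin reductase, rose by 0.97 in WT (limma adjusted p = 0.00013), and the nuclease gene AEN by 0.47 (limma adjusted p = 0.000156). In the libraries labelled PARP3-/-, SESN1 rose by 0.94 (from 4.89 to 10.3 FPKM, in FPKM ratio about as much as CDKN1A) and PHLDA3, an inhibitor of AKT signalling, by 0.83 (both with a limma adjusted p of 0.000142). In WT the difference of BTG2 (1.21) stood above that of CDKN1A. For the libraries labelled PARP3-/- their order on this scale (1.08 and 1.05) turned without vehicle replicate 1. There BTG2 was at 0.98, while CDKN1A was at 1.02 or more in all 20 alternatives. This scale shrinks BTG2 more, as its level is lower. With a pseudocount of 0.1 BTG2 was at 1.20, above CDKN1A, which was at 1.11 or less in all 20 alternatives. The list was drawn up with earlier results of these data known, and its genes named here were picked by smallest p. Its count and p-values are therefore not independent evidence of a direction. Between genotypes, 9.41% of all tested genes were called with vehicle (760 higher and 358 lower) and 10.9% with pyridostatin (840 and 457). Among the vehicle libraries the list held 5 genes (26.3%) called higher with the label PARP3-/- and 0 called lower. Among the pyridostatin libraries it held 3 (15.8%) and 0. Among them were PLK3, a stress-responsive kinase (0.29 with vehicle and 0.26 with pyridostatin), the death receptor gene FAS (0.37 and 0.28), and with vehicle the death receptor gene TNFRSF10B (0.18) and DDB2, a subunit of the UV damage sensor (0.19). Over the alternatives the number called with vehicle ran from 1, when only the libraries of that comparison were fitted, to 9 without WT vehicle replicate 2, and was 3 without WT replicate 3 or PARP3-/- replicate 1 or 3 of the vehicle libraries. With pyridostatin it ran from 1 to 5, where the 5 were again without WT vehicle replicate 2, and leaving out WT replicate 2 or 3 or any PARP3-/- replicate of the pyridostatin libraries gave 1.

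**Figure D5:**
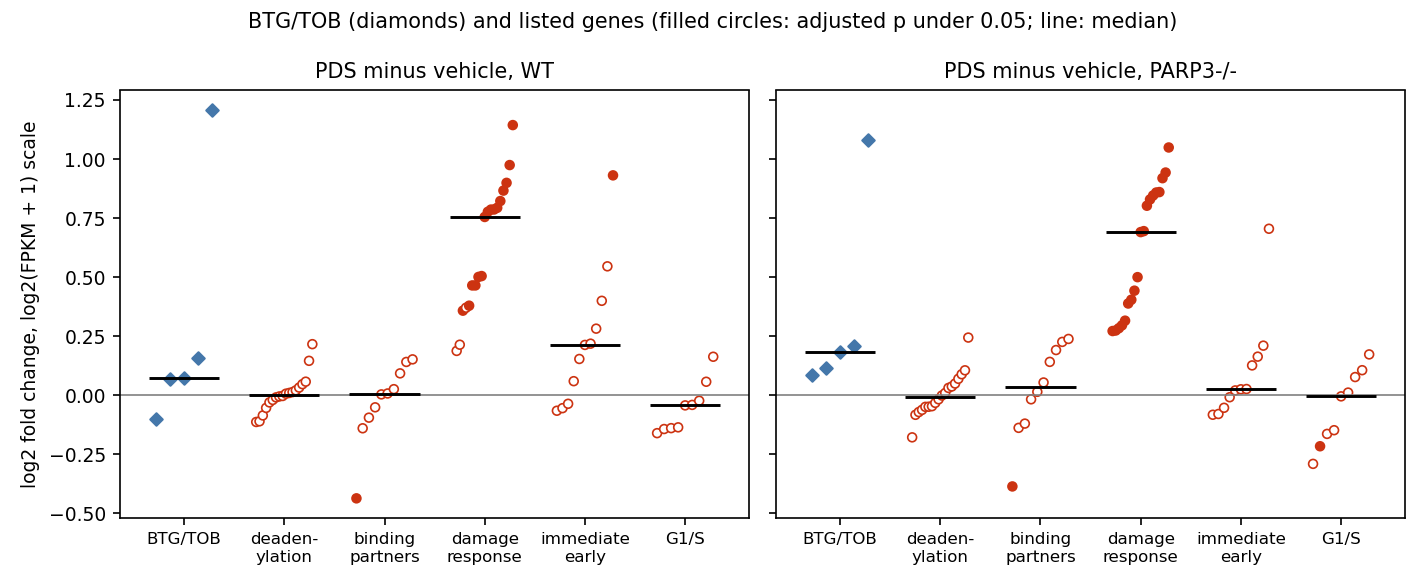
Log2 fold change of PDS minus vehicle on the log2(FPKM + 1) scale (y axis) in WT and in PARP3-/-, for the 5 BTG/TOB genes (diamonds) and for 5 lists of genes (circles, filled at a limma adjusted p under 0.05; horizontal lines, medians). The damage response list has its median at 0.75 and 0.69, beside 1.21 and 1.08 for BTG2, while the deadenylation genes lie between -0.18 and 0.24 with no filled circle.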

How the data were processed

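RNA-seq libraries (stranded mRNA kit, single-end reads of 75 bases) were made from 12 cultures, grouped by the labels of the samples. The authors deposited FPKM values, 1 column per library. The submitters' processing notes list bcl2fastq 2.16, STAR 2.5 and Cufflinks with the builds hg19 and mm9. The read counts behind their DESeq2 tests were not used here, and columns of no known sample numbered 0. Because the values are FPKM, log2(FPKM + 1) was fitted with limma 3.58.1 in R 4.3.3, in 1 model of 4 groups with 5 contrasts (eBayes with a trend), over the 11881 genes whose mean reached 1 FPKM, and p-values were adjusted by Benjamini and Hochberg. The procedure was tested on simulated data. A gene was called at an adjusted p under 0.05.

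Depth was estimated from steps between low FPKM values and GENCODE lengths of 143 genes. The quartiles of 1 library were 21800000 and 25600000 reads, so absolute numbers are approximate. BTG2 rests on about 280 to 1000 reads per library, which gives a counting error of 5.94% to 3.13%. Promoter sequences came from RefSeq on GRCh38.p14, a build other than those in the notes, and no coordinate was carried between them.

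The members and lists were chosen with earlier results of these data known. The p-values of listed genes are therefore not independent evidence. Named were the members, other rows with a symbol of the family, the genes most like each member (5 for BTG2, 3 for the others) and, from each list and pairwise comparison, up to 4 called genes with the smallest p. A few listed genes are not reported here. Alternatives were a pseudocount of 0.1, no filter or a mean of 5 FPKM, quantile normalization, a common median, only the libraries of a comparison, no trend, the replicate number as a block, and each library left out in turn. For the lists these were added after the data were seen. Python 3.11.15 and matplotlib 3.10.9 drew the figures.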

Additional observations from a re-analysis of the deposited data

How the results depend on the processing

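Of 495 recomputed log2 differences of members, 486 kept their direction and side of the threshold, 6 passed the threshold only in the alternative, 0 lost a call and 3 changed sign near 0. These 3 were BTG1 between genotypes with vehicle (-0.0067 with a common median), BTG3 between genotypes with pyridostatin (0.0085 without the PARP3-/- pyridostatin replicate 2, and -0.070 to 0.0085 over all libraries left out) and the interaction of TOB2 (-0.0063 without the PARP3-/- pyridostatin replicate 3, and -0.0063 to 0.082 over all libraries left out). The cause was not tested. Many of the 495 could not change direction. No filter, a mean of 5 FPKM and no trend leave the estimates as they were by construction. So do the replicate block and the fit of only the libraries of a comparison. A library left out moves only the estimates of comparisons that use its group. Only the BTG2 calls with pyridostatin could be lost. BTG2 differed with pyridostatin by 1.17 to 1.36 in WT and 0.98 to 1.20 in the libraries labelled PARP3-/- over all alternatives. Members called with pyridostatin in the latter numbered 2 when only the libraries of that comparison were fitted, and 1 to 2 with a library left out. Between genotypes they numbered 0 to 1 with a library left out, with either treatment. When only the libraries of a comparison were fitted, the genes called with pyridostatin in WT went from 495 to 65. The labels do not say whether equal replicate numbers pair the samples. Deviations of libraries with the same number had correlations from -0.12 to 0.216, which cannot settle it. The replicate block left 1 member called in each pyridostatin comparison (among 411 and 589 genes) and 0 between genotypes. Leaving out 1 library moved the number of genes called with pyridostatin to between 178 and 706 in WT and between 254 and 1559 in the libraries labelled PARP3-/-, and between genotypes to between 746 and 1644 with vehicle and 806 and 2298 with pyridostatin. List counts ran over the alternatives from 13 to 16 (WT) and 15 to 19 (PARP3-/-) for DNA damage response genes with pyridostatin, and from 0 to 2 for deadenylation genes with pyridostatin in PARP3-/- (1 with quantile normalization, a common median or only the libraries of that comparison). BTG4, TOB2P1 and TOB1-AS1 had means under 1 FPKM, where FPKM rest on few reads.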

Other observations

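Beside the DNA damage response, BTG2 belongs to the immediate early genes, which cells induce within minutes of a stimulus. Of 12 such genes listed, 11 were tested. With pyridostatin, 1 was called higher and 0 lower in WT (9.09% of the 11, beside 4.17% of all tested genes). In the libraries labelled PARP3-/- 0 were called, beside 5.56% of all tested genes. ATF3, a stress-induced transcription factor, rose in WT from 3.92 ± 0.259 to 8.44 ± 1.48 FPKM (SD, n = 3, log2 difference 0.93, limma adjusted p = 0.0423). ATF3 kept this call in 7 of 20 alternatives and lost it without any 1 of the 6 WT libraries. The median difference of the list was 0.21 in WT and 0.03 in the libraries labelled PARP3-/-, beside 0.00 for all tested genes. Between genotypes with vehicle, where 9.41% of all tested genes were called (760 higher and 358 lower), 4 genes of the list were called higher in the libraries labelled PARP3-/- and 0 lower, namely JUN (0.39), KLF6 (0.45), JUNB (0.37) and ATF3 (0.82), and over the alternatives 1 to 7 were called. JUN kept its call in all 20 alternatives, KLF6 in 19, JUNB in 15 and ATF3 in 6. ATF3 varied widely among those libraries, at 8.11 ± 3.43 FPKM. With pyridostatin JUN, JUNB and KLF6 were called higher in them, in 20, 17 and 10 of 20 alternatives. These 3 were 27.3% of the 11, beside 10.9% of all tested genes.

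The G1 to S genes, whose step of the cell cycle the family slows, had 0 to 2 of 9 tested genes called in each pairwise comparison (10 were listed). CCND3, the D-type cyclin 3, was lower in the libraries labelled PARP3-/- with vehicle, at 78.3 ± 3.26 against 111 ± 7.70 FPKM in WT (SD, n = 3, log2 difference -0.49, limma adjusted p = 0.000165), and with pyridostatin (-0.37, limma adjusted p = 0.0011). Both calls held in all 20 alternatives. CCNE1 was higher in them with pyridostatin (0.20, limma adjusted p = 0.0403, called in 11 of 20 alternatives), so that 1 of 9 was called with vehicle and 2 of 9 (22.2%) with pyridostatin, beside 9.41% and 10.9% of all tested genes. With pyridostatin 0 genes of this list were called in WT (0 to 1 over the alternatives), beside 4.17% of all tested genes. In the libraries labelled PARP3-/- 1 was called (11.1% of the 9, beside 5.56% of all tested genes, and 0 to 4 over the alternatives), CDK2, which fell from 29.4 ± 1.29 to 25.2 ± 0.0655 FPKM (log2 difference -0.22, limma adjusted p = 0.0174). This call was lost without vehicle replicate 3 or pyridostatin replicate 2 or 3 of those libraries.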
